A study of Homo sapiens with 36 samples.

Results

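The comparison is CoCl2 against control in the messenger RNA of differentiated Caco-2 cells (dCaco-2), taken over the whole transcriptome. Its groups were formed by the libraries' labels and not by any measured value, and it holds 6 of the 36 libraries of the series, 3 per group. The comparison and the gene lists used below were chosen with earlier results of these data known. All 60591 genes of the count table were considered, of which 33395 had at least 1 count in these 6 libraries and 16034 passed the filter on low counts and were tested. Caco-2 is a single human colorectal carcinoma line that forms a polarised layer like the absorptive lining of the small intestine when it is kept confluent, and the cells had been differentiated for 21 days in both groups. The treated cells received CoCl2 at 300 µM for 24 h and the control cells received 0.5 µl of dimethyl sulfoxide (DMSO) per ml of medium. Another group of 3 libraries, from cells given an oxyquinoline derivative (OD) at 5 µM with the same amount of DMSO for 24 h, served for comparison and shares the control libraries. The labels describe the CoCl2 stock as made in water, whereas the study's methods place DMSO in the CoCl2 medium too and at a concentration that differs from the labels, so it is not settled whether the solvent was matched. The study's methods call the replicates biological, yet no source used here says that they came from separate cultures, and p-values measure the spread between these samples, which may be technical. In bulk RNA, fewer cells of a type and less RNA per cell cannot be told apart.

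Cobalt ions imitate low oxygen. The prolyl hydroxylases EGLN1, EGLN2 and EGLN3 use oxygen and iron to mark the alpha subunits of hypoxia-inducible factor (HIF) for destruction through VHL, and cobalt interferes with the iron in these enzymes, so that HIF accumulates at normal oxygen and switches on genes of glycolysis, glucose uptake and angiogenesis. Cobalt is also a metal stress and an oxidant in its own right. Metal ions release the factor MTF1 onto metallothionein genes, electrophiles and oxidants release NRF2 (the product of NFE2L2) from KEAP1 onto antioxidant genes, and damaged proteins release HSF1 onto heat shock genes. The factors read short DNA words in promoters, and the genes below are grouped by these systems first and by the functions of the enterocyte afterwards.

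Promoters of genes from these systems are shown so that the words can be seen in place, and the genes were chosen after their values were seen, for their system and for a match to its word. The windows are the 250 bases before the transcription start in RefSeq on GRCh38.p14, read 5′ to 3′ on the gene's strand, and capitals mark matches to a word on either strand. For MT2A (chr16:56608334-56608583, plus strand) and MT1X (chr16:56682220-56682469, plus strand), both metallothioneins, the word was the metal response core TGCACNC or TGCGCNC, where N is any base.
MT2A: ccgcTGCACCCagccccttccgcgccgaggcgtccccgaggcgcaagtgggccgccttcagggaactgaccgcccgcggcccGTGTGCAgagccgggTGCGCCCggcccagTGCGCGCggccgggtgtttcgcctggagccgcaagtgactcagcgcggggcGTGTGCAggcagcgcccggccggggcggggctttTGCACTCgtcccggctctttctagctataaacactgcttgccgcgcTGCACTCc
MT1X: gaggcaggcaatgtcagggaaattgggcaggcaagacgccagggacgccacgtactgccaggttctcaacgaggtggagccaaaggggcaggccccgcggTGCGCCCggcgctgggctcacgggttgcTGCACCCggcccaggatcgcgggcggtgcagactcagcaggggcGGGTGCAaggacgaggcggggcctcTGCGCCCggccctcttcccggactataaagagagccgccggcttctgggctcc
For ANKRD37 (chr4:185396591-185396840, plus strand), PPFIA4 (chr1:203026241-203026490, plus strand), ENO2 (chr12:6914330-6914579, plus strand), PFKFB4 (chr3:48556804-48557053, minus strand) and PDGFRB (chr5:150155846-150156095, minus strand), the word was the hypoxia response core ACGTG or GCGTG. The first 4 of these genes were among the 20 with the largest rise and PDGFRB had the largest fall, and its window holds the word as well.
ANKRD37: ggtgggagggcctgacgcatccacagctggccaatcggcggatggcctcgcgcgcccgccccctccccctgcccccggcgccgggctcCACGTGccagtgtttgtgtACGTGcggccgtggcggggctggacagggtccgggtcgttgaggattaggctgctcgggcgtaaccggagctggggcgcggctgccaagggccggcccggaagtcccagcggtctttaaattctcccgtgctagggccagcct
PPFIA4: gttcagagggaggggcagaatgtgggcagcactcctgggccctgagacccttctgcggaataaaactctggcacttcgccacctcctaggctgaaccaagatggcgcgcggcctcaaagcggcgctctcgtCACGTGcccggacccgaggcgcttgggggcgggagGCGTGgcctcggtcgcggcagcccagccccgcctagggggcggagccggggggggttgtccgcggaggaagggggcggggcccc
ENO2: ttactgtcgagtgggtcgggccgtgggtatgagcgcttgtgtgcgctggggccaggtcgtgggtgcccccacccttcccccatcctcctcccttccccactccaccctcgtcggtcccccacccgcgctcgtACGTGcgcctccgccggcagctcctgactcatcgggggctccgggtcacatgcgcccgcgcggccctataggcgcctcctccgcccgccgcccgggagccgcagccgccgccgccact
PFKFB4: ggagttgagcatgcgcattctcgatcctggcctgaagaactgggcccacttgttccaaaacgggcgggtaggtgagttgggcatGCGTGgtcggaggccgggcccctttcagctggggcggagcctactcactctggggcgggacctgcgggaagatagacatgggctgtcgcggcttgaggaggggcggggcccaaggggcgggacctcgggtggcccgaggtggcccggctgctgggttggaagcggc
PDGFRB: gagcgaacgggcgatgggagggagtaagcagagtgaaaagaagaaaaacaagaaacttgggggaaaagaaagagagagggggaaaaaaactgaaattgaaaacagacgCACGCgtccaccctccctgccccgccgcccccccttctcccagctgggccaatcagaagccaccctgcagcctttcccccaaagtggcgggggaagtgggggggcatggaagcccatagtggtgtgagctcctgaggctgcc
For the NRF2 target GCLM (chr1:93909431-93909680, minus strand) the word was the antioxidant response core TGACNNNGC, and for the chaperone gene HSPA1A (chr6:31815293-31815542, plus strand) it was the paired heat shock unit GAANNTTC or TTCNNGAA.
GCLM: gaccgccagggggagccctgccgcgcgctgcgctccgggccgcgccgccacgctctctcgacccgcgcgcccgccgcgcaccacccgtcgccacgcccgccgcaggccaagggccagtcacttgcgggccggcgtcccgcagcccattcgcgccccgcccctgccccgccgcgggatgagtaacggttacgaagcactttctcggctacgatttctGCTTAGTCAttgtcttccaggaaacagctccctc
HSPA1A: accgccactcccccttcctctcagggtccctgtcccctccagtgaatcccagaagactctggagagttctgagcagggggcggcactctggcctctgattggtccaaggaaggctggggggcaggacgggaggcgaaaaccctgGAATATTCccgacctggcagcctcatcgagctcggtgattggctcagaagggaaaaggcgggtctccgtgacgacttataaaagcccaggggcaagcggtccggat
By this count MT2A held 7 matches, MT1X 4, ANKRD37 and PPFIA4 3 each and the other windows 1 each. CACGTG was counted on both strands, since it holds ACGTG on each. The HSPA1A match, GAATATTC, reads the same on both strands and was counted as 1. Such short words are common: of the 22114 promoters in the RefSeq table, 42.2% held the hypoxia word, 24.3% the metal word, 11.1% the antioxidant word and 11.9% the heat shock word. Among the 7857 tested genes with a promoter in the table these shares were 57.4%, 34%, 12.5% and 8.55%. The hypoxia word stood in 57.1% of the promoters of genes called higher, 48.3% of those called lower and 58.9% of those not called. The cause of the lower share was not tested. A match is a description of letters and not evidence of a bound factor.

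The 6 libraries held between 13091650 and 20966763 counts. Library composition differed between the groups: transcripts of mitochondrial DNA took 6.19% to 6.91% of counts in controls and 4.83% to 5.55% under CoCl2, the 20 most abundant genes took 10.2% to 10.8% and 11.1% to 11.6%, and 24979 to 26023 genes had a count in controls against 23885 to 24572. Scaling factors, set by trimmed means of log ratios between libraries (TMM), were 1.11 to 1.13 in controls and 0.883 to 0.906 under CoCl2. A count of 0 allows a level of up to 0.162 to 0.25 CPM (counts per 1000000 of the scaled library size), depending on the library and covering counting error only. Within the CoCl2 group, replicate 1 stood apart: the chi-square of its counts against replicates 2 and 3, divided by the degrees of freedom, was 8.84 and 10.9, where the other pairs within these groups lay between 2.91 and 3.62, and without it 3914 genes were called. Markers of cells from outside the epithelium were few. Of 10 markers of endothelium and blood 2 were tested, summing to 8.24 to 12.4 CPM in controls and 2.06 to 2.69 CPM under CoCl2, with the vessel marker CDH5 at 3 counts or fewer and the leukocyte marker PTPRC at 1 or fewer in each of the 6 libraries. Of 10 markers of fibroblasts and smooth muscle 6 were tested, summing to 98.3 to 109 CPM in controls, 49.5, 58.1 and 54 CPM of it from PDGFRB, and to 42.7 to 45.9 CPM under CoCl2, with COL1A2, DCN and ACTA2 at 1 count or fewer in each of the 6 libraries. All 15 enterocyte markers were tested, and they summed to 6974 to 7365 CPM in controls and 9017 to 9683 CPM under CoCl2, with 3 called higher and 2 lower, or 2 and 4 when scaled by total counts only. Of 11 markers of goblet and Paneth cells, secretory cells of the same epithelium, 6 were tested, summing to 765 to 858 CPM in controls and 732 to 817 CPM under CoCl2, with 1 called higher and none lower.

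The first question was how much of the transcriptome moved. A gene was called when its adjusted p (edgeR's quasi-likelihood test with Benjamini-Hochberg adjustment over 16034 genes) was below 0.05 and its log2 fold change above 1 or below -1, the thresholds of the study. By this rule 3745 genes, or 23.4% of those tested, were called. Of these 1464 (9.13%) were higher and 2281 (14.2%) lower under CoCl2, and these shares are the background for each count below. Smaller shifts were far more widespread: 10375 genes, or 64.7%, passed the adjusted p alone, 5067 of them higher and 5308 lower, and in 11060 genes (69.0%) the 3 treated libraries did not overlap the 3 controls. Among the called genes 3681 had no overlap. Regardless of sign, the median change was 0.52 on the log2 scale, and the 5th and 95th percentiles were -1.75 and 1.39. Among the called genes 371 were above 2 and 570 below -2 on the log2 scale, 118 above 3 and 130 below -3, and 32 above 4 and 31 below -4.

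**Figure D1:**
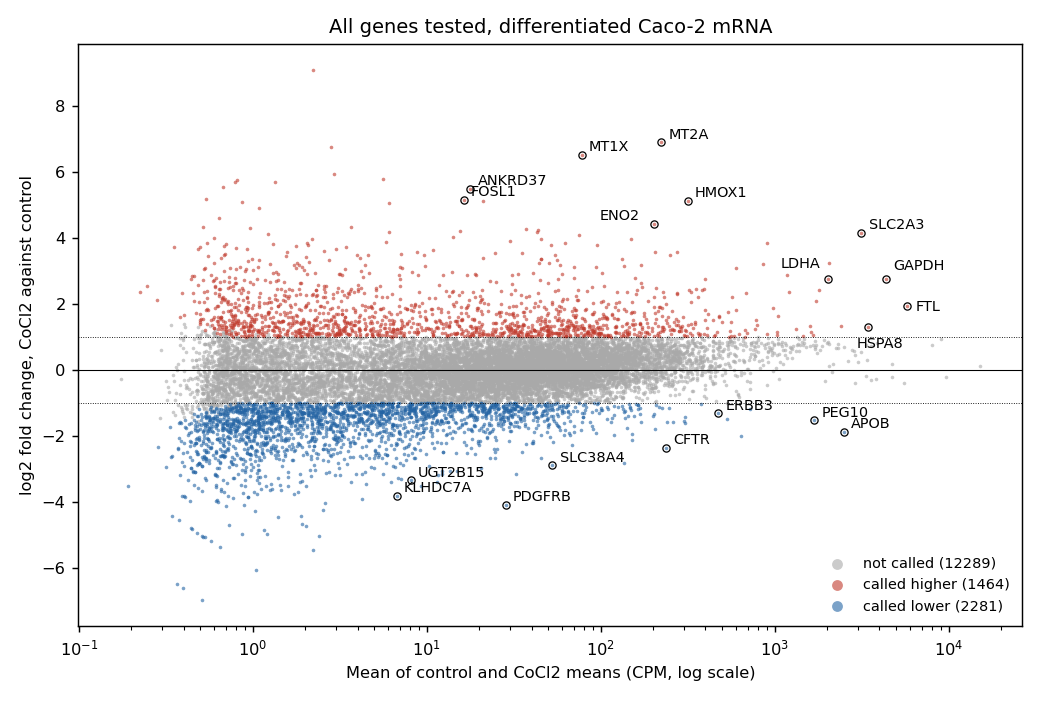
Each point is 1 of the 16034 tested genes, with the mean of its control and CoCl2 levels on the horizontal axis (CPM, log scale) and its log2 fold change, CoCl2 over control, on the vertical axis. Called genes are coloured by direction, 1464 higher and 2281 lower, and the lower calls lie mostly to the left, where this mean is low. A fall itself lowers the mean.

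The split by direction depended on the scale. When libraries were scaled by total counts only, the median of all genes shifted by -0.32 on the log2 scale, and 865 genes were called higher and 3544 lower, so that higher calls made up 19.6% of calls in place of 39.1%. Limma-trend on the log2 table, which changed the test and the set of genes as well, gave 584 higher and 514 lower (53.2% higher) with the deposited pseudocount of 1, and 885 and 1231 (41.8% higher) with 0.1. No gene called by the TMM scale was called in the opposite direction under any setting tried. All values below are on the TMM scale, and a list is said to change direction where the larger of its higher and lower counts changed with total-count scaling. Where a larger count given below moved by over 1.5 times, its value under that scaling is given beside it.

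The direction of change followed abundance. Among the 101 genes with a mean above 1000 CPM, 18.8% were called higher and 1.98% lower, with a median log2 fold change of 0.72. From 100 to 1000 CPM (2058 genes) the shares were 10.4% and 2.48% with a median of 0.31, and from 10 to 100 CPM (7294 genes) they were 6.50% and 7.42% with a median of 0.00. From 1 to 10 CPM (4818 genes) they were 11% and 24.4% with a median of -0.29, and below 1 CPM (1763 genes) 12.9% and 29.0% with a median of -0.40. Counts were moved accordingly. The 1464 genes called higher took 6.21% to 6.32% of all counts in the control libraries and 15.8% to 16.2% under CoCl2, whereas the 2281 genes called lower took 5.67% to 5.82% and then 1.62% to 1.73%. These shares are a description, since the same counts made the calls.

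Kinds of transcript differed as well, but they were not compared at like levels. Lower calls were more frequent among all genes where the mean of control and CoCl2 levels was low, as given above, and that mean holds the change itself. Of 12690 protein-coding genes, 7.86% were called higher and 11% lower, and their median was 0.00. Long noncoding RNAs fell more often, with 9.43% of 795 called higher and 34.6% lower and a median of -0.55. Among symbols that mark antisense transcripts 27 of 396 tested were higher and 146 lower, and among LINC symbols, which name intergenic noncoding transcripts, 19 of 240 were higher and 93 lower. Processed pseudogenes, intronless copies of spliced messages, went the other way, with 32.0% of 284 called higher and 7.39% lower and a median of 0.75. Reads of a pseudogene and its parent gene are hard to separate, and FTL, GAPDH, HSP90AB1, KRT8, KRT18 and the ribosomal proteins are known for many such copies. Although the library kit marks the strand, its use in counting was not stated, so that sense and antisense reads cannot be told apart. Many genes named below overlap an annotated gene, such as ENO2 with LRRC23 and EGLN3 with SPTSSA on the same strand and PEG10 with SGCE on the opposite strand. On the autosomes and X, 6.53% to 10.9% of genes were called higher and 8.33% to 16.5% lower.

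The 20 largest rises among well counted genes, those with a mean of at least 100 counts and no overlap between groups, drew on metal, hypoxia and early response genes. MT2A, a metallothionein that binds zinc and other metals through its cysteines (chr16:56608584-56609497), stood at 1.86, 4.56 and 4.98 CPM in the control libraries and 449, 412 and 459 CPM under CoCl2. Every treated library was above every control, which the rule for these 20 requires, and the log2 fold change was 6.88 ± 0.17 (SE), adjusted p = 1.90e-16. MT1X, a second metallothionein, stood at 0.815, 2.15 and 2.22 CPM in the control libraries and 152, 148 and 161 CPM under CoCl2 (log2 fold change 6.50 ± 0.166 (SE), adjusted p = 3.33e-20). HMOX1, which opens the heme ring and releases iron (chr22:35380361-35394214), went from 15.6, 19.3 and 18.4 CPM to 651, 574 and 615 CPM, a 34.6-fold rise with a log2 fold change of 5.11 ± 0.101 (SE), adjusted p = 1.53e-23. The treated libraries of HMOX1 were close to each other and far from the controls. ANKRD37, an ankyrin repeat protein known as a HIF target, stood at 0.815, 0.738 and 0.762 CPM in the control libraries and 41.2, 28.8 and 34.3 CPM under CoCl2 (log2 fold change 5.47 ± 0.20 (SE), adjusted p = 1.98e-18).

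Early response genes stood beside them. FOSL1 and FOS, subunits of the AP-1 factor, rose by 5.15 and 4.23 on the log2 scale, and FOS stood at 5.06, 4.9 and 3.12 CPM in the control libraries and 86.4, 80.4 and 80.9 CPM under CoCl2. CCL20, a chemokine released by intestinal epithelium, stood at 1.75, 1.88 and 1.25 CPM in the control libraries and 27.6, 26.4 and 25.6 CPM under CoCl2 (log2 fold change 4.02 ± 0.166 (SE), adjusted p = 2.81e-17). MAFF, a small partner of NRF2 and AP-1 factors, rose 15.6-fold. DDIT4, an inhibitor of mTORC1, rose 14.4-fold and GDF15, a secreted stress cytokine, 13.8-fold. Other members of the 20 were the glycolytic genes ENO2 and PFKFB4, the glucose transporter SLC2A3, the metallothioneins MT1E and MT1F, the liprin PPFIA4, the integrin subunit ITGA5, the receptor-like kinase STYK1, the orphan receptor GPRC5A and the water and glycerol channel AQP10, whose log2 fold changes ranged from 3.83 for GPRC5A to 5.10 for MT1E. AQP10 differed between controls, with 3.49, 5.9 and 1.94 CPM, while the treated libraries held 57.7, 57.6 and 54.4 CPM.

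**Figure D2:**
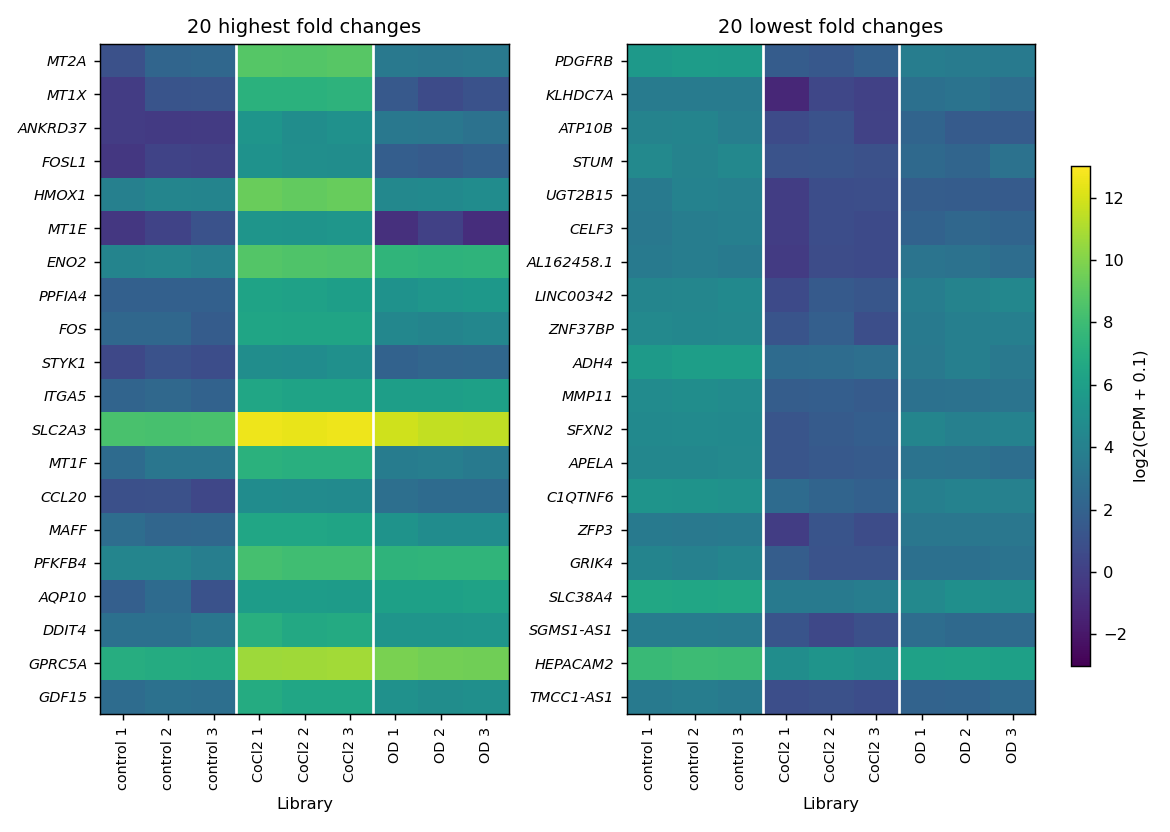
Heat map of the 20 highest and 20 lowest log2 fold changes among called genes with a mean of at least 100 counts and no overlap, in each of the 9 dCaco-2 libraries. Colour is log2 of CPM plus 0.1, and the OD libraries, which chose no gene, lie between the other groups for most genes. They lie near the controls for genes such as the metallothioneins MT1X, MT1E and MT1F and for HMOX1, LINC00342 and ZFP3, and near CoCl2 for ITGA5 and AQP10.

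Hypoxia genes were next. Of 29 tested members of a list of the NDRG family and other hypoxia genes, 25 were called higher and none lower. The median log2 fold change was 1.75 against -0.03 over all genes. NDRG1, a stress protein long used as a hypoxia marker, went from 283, 311 and 257 CPM to 2136, 2029 and 2047 CPM. BHLHE40, a transcriptional repressor of the clock, stood at 24.2, 30.7 and 28.7 CPM in the control libraries and 258, 236 and 241 CPM under CoCl2 (log2 fold change 3.14 ± 0.0911 (SE), adjusted p = 2.38e-20). ERO1A, an oxidase that forms disulfide bonds in the endoplasmic reticulum (ER), rose 6.76-fold, and the histone demethylase KDM3A rose 4.56-fold. The textbook marker CA9, a surface carbonic anhydrase, was not tested because its counts were too low, with 0 in each control library and 6, 7 and 15 under CoCl2.

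Within the HIF machinery, known feedback genes rose and most subunits were not called. EGLN1 stood at 2.68, 3.49 and 3.39 CPM in the control libraries and 28.2, 24 and 21.9 CPM under CoCl2, and EGLN3 at 5.12, 4.29 and 4.08 CPM in the control libraries and 32.1, 34.5 and 33.7 CPM under CoCl2. Both hydroxylases rose without overlap, by 2.95 and 2.89 on the log2 scale, whereas EGLN2 changed by 0.65 ± 0.104 (SE), adjusted p = 5.04e-06 and was not called. CITED2, which competes with HIF for its coactivator, rose 4.23-fold. The alpha subunit HIF1A changed by 0.40 ± 0.102 (SE), adjusted p = 0.00148, with overlap between groups, EPAS1 by 0.55 and ARNT, the common partner, by -0.06, and none was called. HIF3A, an alpha subunit with inhibitory forms, fell from 19.8, 18.3 and 19.9 CPM to 6.33, 5.67 and 4.44 CPM (log2 fold change -1.84 ± 0.149 (SE), adjusted p = 3.55e-11). VHL was at 0.15 and was not called. Across the 12 tested hydroxylases and degradation factors 3 were called higher and none lower, and the median of this list changed sign with total-count scaling.

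Glycolytic genes rose at most steps, and the isoforms separated. Of 25 tested enzymes 17 were called higher and 3 lower, with a median of 1.79, and their summed level went from 4277 to 4469 CPM in controls to 21841 to 23491 CPM under CoCl2. At the entry step, hexokinase HK2 went from 32.7, 32.5 and 30.6 CPM to 378, 379.9 and 374 CPM (log2 fold change 3.56 ± 0.0808 (SE), adjusted p = 2.03e-22) while HK1 rose 3.18-fold. Among phosphofructokinases PFKP rose 7.63-fold, and the muscle form PFKM was at -0.10 and was not called. Of the enzymes that make the activator fructose 2,6-bisphosphate, PFKFB4 stood at 19.6, 19.7 and 14.5 CPM in the control libraries and 306, 269 and 268 CPM under CoCl2 and PFKFB3 rose 6.92-fold.

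Later steps showed isoform differences too. GAPDH stood at 1073, 1192 and 1125 CPM in the control libraries and 7908, 7285 and 7448 CPM under CoCl2, and PGK1 rose 5.08-fold. Enolase ENO2, the form first described in neurons, stood at 18.7, 19.8 and 15.9 CPM in the control libraries and 412, 381 and 367 CPM under CoCl2 (log2 fold change 4.41 ± 0.0915 (SE), adjusted p = 2.98e-23), the common form ENO1 rose 5.3-fold and the muscle form ENO3 fell from 3.38, 3.89 and 2.84 CPM to 1.42, 1.09 and 1.57 CPM. Of the pyruvate kinases PKM rose 3.67-fold and PKLR, the liver form, fell 2.92-fold. LDHA, which turns pyruvate into lactate, rose 6.71-fold, with 3497, 3482 and 3558 CPM under CoCl2, while LDHB was at -0.41 and was not called. ALDOA, the main aldolase of most tissues, was counted at only 3.32, 4.16 and 4.22 CPM in controls and 57.6, 42.2 and 36.8 CPM under CoCl2, and since another annotated gene overlaps it on the same strand its level is uncertain.

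Some members of glucose uptake and lactate export rose strongly. SLC2A3, the neuronal glucose transporter GLUT3 (chr12:7919230-8019007), stood at 345, 326 and 340.1 CPM in the control libraries and 6055, 5587 and 6263 CPM under CoCl2. SLC2A1, or GLUT1, went from 165, 165 and 175 CPM to 1658, 1434 and 1563 CPM. The treated libraries of both were far above the controls, with log2 fold changes of 4.15 ± 0.101 (SE), adjusted p = 7.15e-22 for SLC2A3 and 3.20 ± 0.0813 (SE), adjusted p = 1.35e-21 for SLC2A1. SLC2A14, at 3.10, is a near copy of SLC2A3 and may hold its reads. The fructose transporter SLC2A5 rose 4.76-fold and SLC2A2, the basolateral transporter GLUT2, fell 3.0-fold. Over the 13 tested glucose transporters 4 were higher and 3 lower. The lactate exporter SLC16A3 stood at 4.42, 6.31 and 6.23 CPM in the control libraries and 74.1, 62.6 and 58.6 CPM under CoCl2, and PDK1, a kinase that keeps pyruvate out of mitochondria, at 23.5, 25.7 and 21.9 CPM in the control libraries and 218, 254 and 247 CPM under CoCl2. PDK3 rose 2.18-fold, and PDK4 was not tested, with 2 to 6 counts per library in both groups. Of 17 tested genes of lactate, proton and carbonate handling 1 was higher and 4 lower. The median of that list went from 0.14 to -0.18 with total-count scaling. Of 12 tested genes of pyruvate entry 2 were higher and none lower. With total-count scaling the pyruvate list changed direction, to 1 higher and 2 lower.

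Storage and new synthesis of glucose were mixed. Of 20 tested genes of gluconeogenesis and glycogen 5 were higher and 4 lower. The glycogen branching enzyme GBE1 rose 5.25-fold. PCK1, the cytosolic carboxykinase, rose from 2.79, 3.42 and 3.32 CPM to 8.58, 8.86 and 9.52 CPM and its mitochondrial counterpart PCK2 fell from 88.5, 90.1 and 80.8 CPM to 31.5, 23.7 and 24.2 CPM. FBP1, which reverses phosphofructokinase, fell 2.7-fold. With total-count scaling this list had 3 higher and 6 lower, and the glucose transporter list also changed direction, to 4 higher and 5 lower.

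Other programs known from hypoxia had members that rose. BNIP3 and BNIP3L, receptors that mark mitochondria for removal, rose 12-fold and 6.2-fold, and of 32 tested genes of mitophagy and autophagy 9 were higher and 1 lower. Enzymes that prepare collagen accounted for most of the rises on the collagen list, where 6 of 30 were higher and 4 lower. P4HA1, a proline hydroxylase of collagen, stood at 127, 128 and 126 CPM in the control libraries and 1015, 1096 and 1104 CPM under CoCl2, P4HA2 rose 4.9-fold, the lysine hydroxylase PLOD2 5.35-fold and the crosslinking oxidase LOX 7.46-fold. COL4A1, a basement membrane collagen, fell 4.7-fold. Among angiogenic factors 9 of 28 were higher and 4 lower. VEGFA, the main endothelial growth factor, went from 197, 194 and 190.5 CPM to 539.8, 490.2 and 490.2 CPM, a 2.62-fold rise. The vasodilator peptide ADM rose more, from 9.02, 7.91 and 10 CPM to 109.8, 98.5 and 92.1 CPM (log2 fold change 3.47 ± 0.107 (SE), adjusted p = 6.74e-20). With total-count scaling the collagen list changed direction, to 5 higher and 8 lower, and the angiogenic list had 7 higher and 5 lower while its median went from 0.05 to -0.27.

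Metallothioneins had the highest median of the lists examined. Of 17 metallothionein symbols 8 were tested, and each was called higher, while the other 9 did not pass the filter on low counts. Since the filter can pass a gene through its treated libraries alone, these 8 are not a sample of the family. Their summed level went from 9.66 to 18.9 CPM in controls to 749 to 821 CPM under CoCl2. MT1G stood at 0.116, 0.335 and 0.138 CPM in the control libraries and 11, 9.88 and 12.1 CPM under CoCl2 and MT1F at 6.0, 9.52 and 9.62 CPM in the control libraries and 151, 135 and 139 CPM under CoCl2. MT1H had no count in any control and 5.33, 2.98 and 4.92 CPM under CoCl2, which is at least 22.7-fold higher when the controls are set to 3 counts per library. The median log2 fold change was 5.43, or 4.80 with the 3 members at that floor set to their bound. The family members share long stretches of sequence, so the division of reads among them is uncertain.

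Few other genes of zinc handling were called. SLC30A1, which exports zinc and is a known MTF1 target, stood at 105, 77.9 and 94.3 CPM in the control libraries and 235, 247 and 256 CPM under CoCl2 (log2 fold change 1.41 ± 0.0912 (SE), adjusted p = 5.59e-13), and MTF1 itself rose 2.14-fold. SLC39A10, a zinc importer, fell from 54, 49 and 58.2 CPM to 18.6, 21.7 and 23.9 CPM. SLC30A10, an exporter of manganese, fell 2.15-fold, and the zinc importer SLC39A2 rose from 1 count or fewer per control library to 0.417, 1.09 and 0.487 CPM. Of 23 tested zinc transporters and their regulator 3 were higher and 2 lower. In iron metabolism the storage genes rose. FTL, the ferritin light chain, stood at 2353, 2459 and 2379.6 CPM in the control libraries and 9921, 8550.4 and 8867 CPM under CoCl2, the largest gain in CPM of any called gene. SLC11A2, the apical iron transporter DMT1, rose 2.84-fold. TFRC, the transferrin receptor, was at 0.80 and the exporter SLC40A1 at 0.30, neither called. Of the enzymes that build heme 3 fell, with UROS at -1.28, UROD at -1.15 and PPOX at -1.73, and the ferrireductase STEAP3 fell 4.66-fold. Of 33 tested iron and heme genes 5 were higher and 6 lower. With total-count scaling the zinc list changed direction, to 2 higher and 3 lower, and the iron list had 4 higher and 7 lower while its median went from 0.23 to -0.09.

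Antioxidant genes of the NRF2 system rose broadly. Of 35 tested genes 24 were called higher and 1 lower, with a median of 1.48. GCLM and GCLC, which together make the rate-limiting enzyme of glutathione synthesis, rose 6.05-fold and 3.98-fold, with GCLM at 9.31, 8.79 and 8.24 CPM in the control libraries and 54.1, 52 and 53.5 CPM under CoCl2. TXNRD1, thioredoxin reductase, went from 107, 114 and 112 CPM to 565, 601 and 626 CPM, and SLC7A11, which imports cystine for glutathione, from 18.6, 15.4 and 19.2 CPM to 44.7, 59.4 and 58.8 CPM. OSGIN1, PIR and the autophagy receptor SQSTM1 rose 8.56-fold, 7.31-fold and 5.29-fold. GPX2, the glutathione peroxidase of gut epithelium, stood at 14, 15 and 15 CPM in the control libraries and 105, 94.4 and 98.1 CPM under CoCl2. NQO1, the usual reporter of the pathway, rose by less, from 115, 117 and 117 CPM to 267, 239 and 247 CPM (log2 fold change 1.11 ± 0.0774 (SE), adjusted p = 1.80e-12). NFE2L2 was at 0.82 and was not called, and its inhibitor KEAP1 rose by 1.01, just past the limit. ABCC3, an export pump on the list, fell 3.08-fold. Of 22 other peroxide and superoxide enzymes 4 were higher and none lower, or 2 and 1 with total-count scaling, and among the 4 were GPX3 at 2.28 and SOD1 at 1.21.

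Heat shock genes and the proteasome rose as well. Of 25 tested cytosolic heat shock genes 13 were higher and 1 lower, with a median of 1.04, or 8 higher and 2 lower with total-count scaling. HSPA1A, the main inducible chaperone of the HSP70 family, went from 35, 34 and 34.6 CPM to 308, 318 and 298 CPM (log2 fold change 3.16 ± 0.0803 (SE), adjusted p = 1.35e-21). HSPA1B, its near-identical copy, rose 5.28-fold, and the 2 share reads. HSPA6, a strictly inducible form, stood at 0.582, 0.604 and 0.692 CPM in the control libraries and 10.7, 13.7 and 9.84 CPM under CoCl2, and the constitutive HSPA8 rose 2.47-fold from 1898, 1952 and 2058 CPM. HSP90AA1 rose 2.33-fold, DNAJB1 2.47-fold and BAG3 3.0-fold, while HSPA1L fell 3.16-fold. HSPA8, HSP90AA1 and DNAJB1 were not called with total-count scaling. Of 36 tested proteasome subunits 13 were called higher and none lower, and 34 had a positive log2 fold change, with a median of 0.94. With total-count scaling 7 were called higher. PSMC4, an ATPase of the cap, stood at 90.7, 97.8 and 98.4 CPM in the control libraries and 335, 327 and 328 CPM under CoCl2 and PSMD14, which removes ubiquitin at the cap, rose 2.89-fold. Most subunits thus lay near the fold limit, and PSMD5, an assembly chaperone, was at -0.15 and not called.

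Few chaperones of the ER passed the fold limit. Of 27 tested ER and unfolded protein response genes 2 were called higher, a share of 7.41% near the background, and 1 lower, while 19 had a positive log2 fold change and the median was 0.39. HSPA5, the chief chaperone of the compartment, was at 0.69 (adjusted p = 9.10e-08) and HSP90B1 at 0.55 (adjusted p = 1.62e-06). The treated libraries of both lay above every control, and neither passed the fold limit. CALR was at -0.11 and its groups overlapped. The called rises were ERO1A, given above, and DNAJB9 at 1.65, and CRELD2 fell 2.46-fold.

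**Figure D3:**
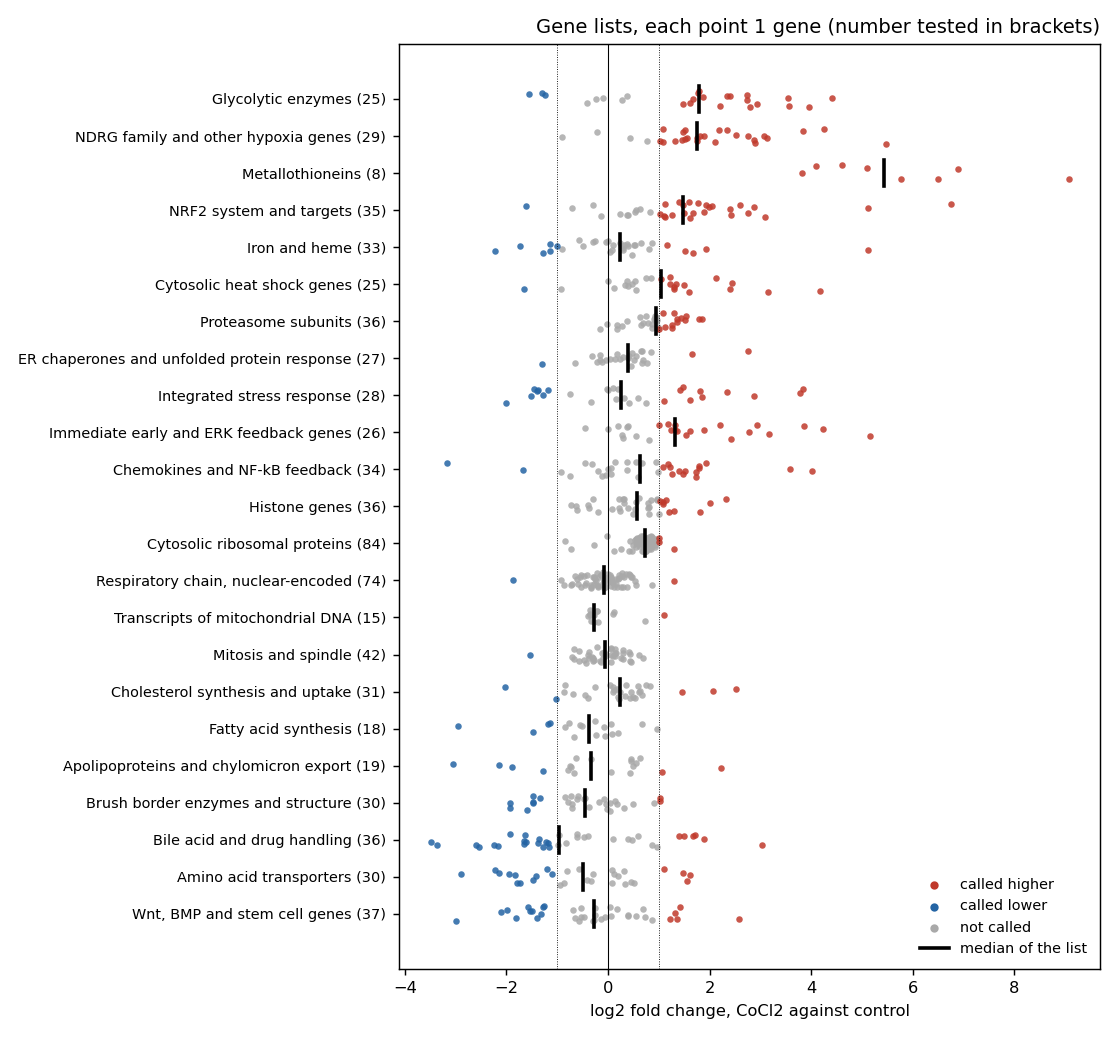
Each row is a gene list, each point 1 tested member at its log2 fold change, CoCl2 over control, with called members coloured and the list's median as a bar. Members at the floor are drawn at their fitted value. Metallothioneins and most glycolytic, hypoxia and NRF2 genes lie to the right of 0, while bile acid and drug handling lies mostly to the left.

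The integrated stress response divided. In this program stress slows general translation and raises the factor ATF4, which turns on genes of stress and of amino acid supply. Of 28 tested genes 10 were higher and 7 lower, or 9 and 8 with total-count scaling, where the median went from 0.25 to -0.07. ATF3 went from 4.42, 5.16 and 4.29 CPM to 34.7, 33.9 and 33 CPM, PPP1R15A, which restores translation, rose 5.1-fold and TRIB3 2.67-fold. All 3 enzymes of serine synthesis fell. PHGDH, the first enzyme of that path, stood at 182, 194 and 182 CPM in the control libraries and 90.4, 77.8 and 78 CPM under CoCl2 (log2 fold change -1.18 ± 0.0763 (SE), adjusted p = 3.78e-13). PSAT1, the next enzyme, fell from 32.6, 29.2 and 33.4 CPM to 11.7, 14.6 and 10.5 CPM and PSPH, the last, from 61.2, 60.3 and 59.1 CPM to 20.8, 22.7 and 19.5 CPM. Every treated library was below every control for each of them, where 69.0% of all tested genes had no overlap. CHAC1, which degrades glutathione, fell 2.42-fold and the folate enzyme ALDH1L2 4.03-fold. ATF4 was at 0.58, DDIT3 at 0.74 and MTHFD2 at 0.42, none called. Of 20 cytosolic tRNA synthetases none was higher and 1 lower, or 3 lower with total-count scaling.

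Early response genes of the ERK pathway formed a list of 26 tested members, of which 17 were higher and none lower, with a median of 1.32. JUN stood at 11.2, 12.1 and 11.6 CPM in the control libraries and 121, 97.4 and 97 CPM under CoCl2 and JUNB rose 4.62-fold. EGR1, the factor most often used to follow the pathway, went from 7.1, 8.65 and 8.72 CPM to 23.2, 24.5 and 23.3 CPM. The phosphatases DUSP1, DUSP5 and DUSP6, which switch the kinases off, rose 7.64-fold, 6.84-fold and 5.34-fold. Of 22 tested DUSP phosphatases 6 were higher and none lower. MYC rose 2.35-fold. Of 18 tested growth factors and receptors 3 were higher, 5 lower and 10 not called, with a median of 0.02. With total-count scaling 2 were higher and 5 lower, the median was -0.30 and EREG was not called. The ligands AREG, EREG and HBEGF rose 2.86-fold, 2.39-fold and 3.92-fold, with AREG at 24.9, 22.7 and 21.5 CPM in the control libraries and 63.4, 65.7 and 69 CPM under CoCl2. The receptor EGFR fell from 198, 193 and 190.4 CPM to 81.5, 83.1 and 80.8 CPM (log2 fold change -1.24 ± 0.0689 (SE), adjusted p = 1.56e-14), ERBB3 from 668, 704 and 652 CPM to 275, 279.5 and 254 CPM, and FGFR2 fell 2.56-fold. ERBB2 was at -0.27 and was not called.

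Among 34 tested chemokine and NF-kB genes 14 were higher and 2 lower, with a median of 0.63, or 9 and 3 with total-count scaling. After CCL20, the chemokine receptor CXCR4 stood at 0.466, 0.537 and 0.138 CPM in the control libraries and 4.42, 6.18 and 3.68 CPM under CoCl2. The feedback inhibitor NFKBIA rose 2.25-fold and the subunit RELB 2.78-fold. CXCL1 and CXCL3 rose from near 1 CPM, by 1.07 (adjusted p = 0.0377) and 1.80 on the log2 scale. NFKBIA and CXCL1 were not called with total-count scaling, and CXCL1 was also not called by DESeq2 or with no filter on low counts. CXCL8 was too low to be tested, with 3, 0 and 0 counts in controls and 12, 6 and 11 under CoCl2. CX3CL1 fell from 1.22, 1.14 and 0.90 CPM to 0.167, 0.218 and 0 CPM, at 3 counts or fewer per treated library. Among 36 tested interferon response genes 5 were higher and 4 lower, and that list changed direction with total-count scaling, to 3 higher and 6 lower.

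Few genes of mitochondria and ribosomes were called. Of 74 tested nuclear genes of the respiratory chain 1 was higher and 1 lower, with a median of -0.08, and with total-count scaling none was higher and 5 lower, with a median of -0.40. The subunit that fell was ATP5MC1, of the ring of ATP synthase, from 109, 116 and 106 CPM to 31.6, 29.8 and 29 CPM (log2 fold change -1.88 ± 0.0815 (SE), adjusted p = 8.25e-17). Of the 15 transcripts of mitochondrial DNA 1 was called, the ribosomal RNA MT-RNR1 at 1.10, and the median was -0.28, and with total-count scaling none was called. Of 23 enzymes of the citric acid cycle 1 was higher and 1 lower, or 1 and 5 with total-count scaling. Among 84 cytosolic ribosomal proteins 3 were called higher, RPL41, RPL30 and RPS27, yet 80 had a positive log2 fold change and the median was 0.74, which fell to 0.42, with none called higher and 2 lower, on total-count scaling. DNA replication had 2 of 49 tested genes higher and 1 lower, and mitosis none of 42 higher and 1 lower, shares below the background, and with total-count scaling the replication list had 2 higher and 4 lower and the mitosis list 2 lower. MKI67, a marker of dividing cells, went from 221, 242 and 242 CPM to 172, 191 and 178 CPM (log2 fold change -0.38 ± 0.0711 (SE), adjusted p = 4.25e-05) and was not called.

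The genes that fell most were less known. PDGFRB, a receptor of platelet-derived growth factor (chr5:150113839-150155872), went from 49.5, 58.1 and 54 CPM to 3.08, 2.54 and 3.68 CPM (log2 fold change -4.09 ± 0.138 (SE), adjusted p = 4.28e-19). KLHDC7A, a kelch protein, fell from 12.6, 12.7 and 12.5 CPM to 0.333, 1.24 and 0.974 CPM, and ATP10B, a flippase of membrane lipids, from 17.6, 18.8 and 14.5 CPM to 1.5, 1.96 and 1.03 CPM. ADH4, an alcohol dehydrogenase of gut and liver, stood at 53.1, 61.3 and 62 CPM in the control libraries and 6.0, 6.18 and 7.19 CPM under CoCl2. HEPACAM2 was the most abundant of the 20, at 232, 247 and 235 CPM in the control libraries and 28.8, 38.8 and 32.3 CPM under CoCl2 (log2 fold change -2.83 ± 0.0901 (SE), adjusted p = 1.21e-19). The others were the amino acid transporter SLC38A4, the metalloprotease MMP11, the peptide hormone APELA, the mitochondrial carrier SFXN2, the secreted protein C1QTNF6, the glutamate receptor subunit GRIK4, the RNA-binding protein CELF3, the glucuronosyltransferase UGT2B15, STUM, the zinc finger gene ZFP3, the transcribed pseudogene ZNF37BP, the noncoding transcripts LINC00342 and SGMS1-AS1, and TMCC1-AS1 and AL162458.1, whose kind was not matched in the annotation. Their log2 fold changes lay between -3.40 for STUM and -2.83 for TMCC1-AS1.

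Enzymes and transporters that clear drugs and hormones were lower more often than the background. Of 36 tested genes of bile acid and drug handling 17 were lower and 6 higher, with a median of -0.97. UGT2B15 stood at 12.2, 16.7 and 15.6 CPM in the control libraries and 0.833, 1.6 and 1.73 CPM under CoCl2, UGT2B17 at 21.6, 32.3 and 33.6 CPM in the control libraries and 5.33, 6.32 and 3.68 CPM under CoCl2, and UGT2B7, UGT2B10 and UGT2B11 were also lower. These enzymes attach glucuronic acid to steroids and drugs, and being near copies they may share reads. The UGT1A genes went the other way from low levels, with UGT1A6 at 1.63, 1.07 and 1.04 CPM in the control libraries and 4.5, 3.71 and 4.33 CPM under CoCl2 and UGT1A1 at 3.03 on the log2 scale, and they share exons. The sulfotransferase SULT2A1 fell 4.51-fold. SLC10A2, the bile acid transporter of the ileum, fell from 1.75, 3.49 and 1.94 CPM to 0.333, 0.509 and 0.325 CPM. Of the pumps, ABCC2 rose from 417, 409 and 401 CPM to 1113, 1169 and 1192 CPM and ABCC3 fell from 474, 476 and 433 CPM to 155, 143 and 151 CPM, while ABCB1 was at -0.82 and was not called. By symbol, 11 of 29 tested cytochromes P450, 6 of 10 UGT genes, 4 of 7 sulfotransferases, 5 of 15 glutathione transferases and 6 of 17 aldehyde dehydrogenases were lower, against 3, 2, 0, 0 and 0 higher.

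Genes of lipid export and storage were called in both directions. Of 19 tested apolipoprotein and chylomicron genes 2 were higher, 4 lower and 13 not called, or 1 higher and 7 lower with total-count scaling. Of 35 tested genes of lipid droplets and fatty acid oxidation 3 were higher and 7 lower. APOB, the structural protein of chylomicrons, stood at 3948, 3914 and 3919 CPM in the control libraries and 958, 1189 and 1040.3 CPM under CoCl2 (log2 fold change -1.89 ± 0.0899 (SE), adjusted p = 6.31e-16), the largest loss in CPM of any called gene. APOA4 rose from 13.4, 15.9 and 9.9 CPM to 72.2, 65.8 and 45.6 CPM and APOC3 2.1-fold, the latter not called with total-count scaling, while APOA1 was at 0.55 and MTTP, which loads lipid onto APOB, at 0.49, neither called. Among lipid droplet genes HILPDA and PLIN2, which coat and preserve droplets, rose 10-fold and 4.59-fold. G0S2, an inhibitor of the lipase PNPLA2, fell 4.09-fold and ACADM, of fatty acid oxidation, 3.3-fold. INSIG2, which restrains sterol synthesis, rose 5.72-fold, whereas the synthetic enzyme HMGCS1 was at 0.82 and was not called. TM7SF2, a late enzyme of cholesterol synthesis, fell 4.1-fold. Of 31 tested cholesterol genes 3 were higher and 2 lower, and that list changed direction with total-count scaling.

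On the brush border 7 of 30 tested genes were lower and 2 higher, or 12 and none with total-count scaling. SI, sucrase-isomaltase, stood at 246, 319 and 303 CPM in the control libraries and 94.2, 131 and 119 CPM under CoCl2 (log2 fold change -1.33 ± 0.128 (SE), adjusted p = 1.64e-07), and LCT, lactase, at 8.96, 9.19 and 9.14 CPM in the control libraries and 2.5, 3.42 and 3.73 CPM under CoCl2. TREH, trehalase, fell 3.83-fold at about 1 CPM. The dipeptidase DPP4 was at 0.03, alkaline phosphatase ALPI at -0.47 and villin, VIL1, at -0.85, and none was called. Of 19 tested ion channels and pumps 3 were lower (15.8%, near the background) and 1 higher, or 8 and 1 with total-count scaling. Among the lower were the chloride channel CFTR, at 378, 407 and 412 CPM in the control libraries and 64.6, 88.1 and 78.2 CPM under CoCl2 (log2 fold change -2.37 ± 0.0903 (SE), adjusted p = 4.81e-18), and SLC12A2, which loads the cell with chloride, at 73.6, 66.4 and 77.6 CPM in the control libraries and 16.3, 20.9 and 17.3 CPM under CoCl2. Amino acid transporters were lower in 11 of 30 and higher in 4, with a median of -0.50. SLC38A3 fell from 66, 68.6 and 64 CPM to 13.1, 11.5 and 17.3 CPM, the arginine transporter SLC7A2 4.42-fold and the glycine transporter SLC6A9 3.86-fold. Over all 289 tested solute carriers 73 (25.3%) were lower and 27 (9.34%) higher.

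Genes of epithelial identity were called in both directions. Of 29 tested lineage factors 1 was higher, ELF3, from 96.4, 98.2 and 89 CPM to 427, 342 and 363 CPM, and 6 lower, among them FOXA1, from 172, 161 and 181 CPM to 55.7, 59.3 and 55 CPM. CDX2, the master factor of intestine, was at 0.93 and HNF4A at 0.07, neither called. Of 8 tested epithelial keratins 3 were higher and none lower, or 1 and 1 with total-count scaling. KRT8, KRT18 and KRT19 rose 2.09-fold, 2.55-fold and 2.34-fold, and on total counts KRT8 and KRT19 were not called. Of 39 tested junction genes 6 were higher and 3 lower, and the list changed direction with total-count scaling, to 2 higher and 3 lower. The tight junction genes CLDN4 and OCLN rose 5.03-fold and 2.22-fold, with CLDN4 at 218, 243 and 224 CPM in the control libraries and 1255, 1033 and 1157 CPM under CoCl2, and OCLN was not called with total-count scaling. CLDN1 was at -0.66 and CLDN2 at -0.40, neither called. The Wnt, BMP and stem cell list had 11 of 37 lower and 5 higher. LGR5, the marker of crypt stem cells, fell from 29.1, 27.5 and 32 CPM to 6.58, 7.56 and 6.38 CPM, the Wnt feedback inhibitor NKD1 3.5-fold and the factor LEF1 2.9-fold, whereas AXIN2, the usual Wnt reporter, was at -0.07. In BMP signalling the target ID1 rose 5.97-fold while the inhibitor SMAD6 fell from 7.51, 9.66 and 9.42 CPM to 1.0, 1.38 and 0.974 CPM.

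Absolute shifts ranked the genes differently from folds. Among the 10 largest gains in CPM were FTL, GAPDH, SLC2A3, CKB, LDHA, HSPA8, ENO1, HSP90AB1 and NDRG1, and the 10 largest losses were APOB, PEG10, OAT, GLUD1, FGG, ERBB3, CFTR, ABCC3, RPS6KA3 and FRAS1. CKB, a creatine kinase that buffers ATP, stood at 369, 417 and 395 CPM in the control libraries and 4363, 3358 and 3360.2 CPM under CoCl2. Per kilobase of annotated exon, FTL went from a mean of 2752 to 10462 CPM per kilobase, GAPDH from 472 to 3149.8, HMOX1 from 7.7 to 266 and MT2A from 4.16 to 482, so that MT2A rose from below HMOX1 to above it. Among the losses APOB went from 265 to 71.7 CPM per kilobase and CFTR from 23.7 to 4.58. OAT, which makes ornithine into proline precursors, stood at 1007, 1019.5 and 1027 CPM in the control libraries and 240.1, 258 and 263 CPM under CoCl2, and PEG10, an imprinted gene derived from a retroelement, at 2542, 2499 and 2476 CPM in the control libraries and 821, 890.0 and 883 CPM under CoCl2. GLUD1, glutamate dehydrogenase, fell 2.29-fold.

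**Figure D4:**
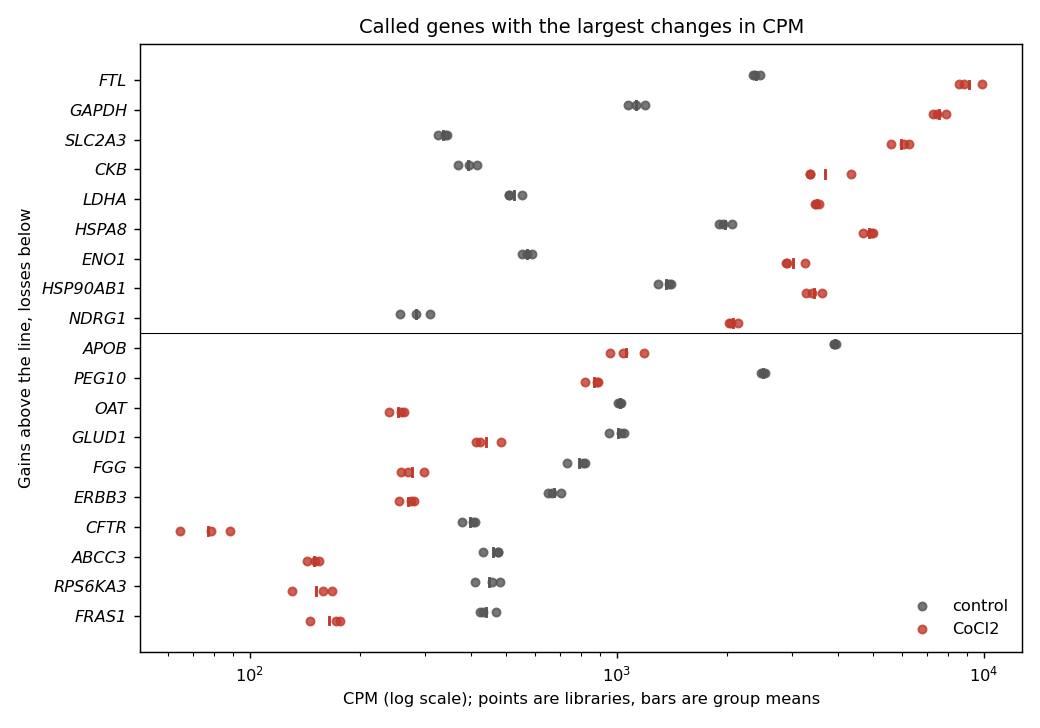
CPM on a log axis in the control and CoCl2 libraries for the genes named among the largest gains and the largest losses of called genes, with each library as a point and the group mean as a bar. FTL gained most and APOB lost most, and no gene shown has overlapping groups, as is so for most called genes.

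Some genes were at the floor in one group, that is at 3 counts or fewer in each of its libraries, which was so for 40 of the genes called higher and 104 of those called lower. For these only a bound on the fold is given. The most counted of those at the floor in controls were NRN1 and NMRAL2P. NRN1, a membrane-anchored neuronal growth protein, was at least 29.5-fold higher with 6.75, 5.67 and 4.81 CPM under CoCl2. NMRAL2P, a pseudogene known as an NRF2 target, was at least 28.7-fold higher. VEGFD, an endothelial growth factor, was at least 8.74-fold higher and the chemokine CCL26 at least 8.22-fold higher. In the other direction the haptoglobin-related gene HPR was at least 22.3-fold lower, with 4.6, 4.49 and 4.98 CPM in controls, A2M-AS1 at least 20.5-fold lower, the alcohol dehydrogenase ADH1B at least 18.5-fold lower, the keratin KRT4 at least 17.7-fold lower and the sodium channel SCN2A at least 9.88-fold lower.

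The OD group shows which of these changes differ between a metal and an organic HIF activator. The comparisons share the control libraries, so the values are set side by side and the test is that of CoCl2 against OD directly, in the same fit. By this test 832 genes (5.19%) were higher and 1028 (6.41%) lower under CoCl2 than under OD by the same rule. When scaled by total counts only, 601 were higher and 1523 lower. Most hypoxia and glycolysis genes were not called by this test. Yet 5 of 25 glycolytic enzymes and 5 of 29 other hypoxia genes were higher under CoCl2 and none lower, shares above the 5.19% of all genes. List medians were 1.79 under CoCl2 and 1.36 under OD for glycolysis and 1.75 and 0.97 for the others. PFKP held 205, 171 and 166 CPM under CoCl2 and 193, 187 and 199 CPM under OD, a difference of -0.10 ± 0.0886 (SE), adjusted p = 0.369. GAPDH held 3314, 3176 and 3354 CPM under OD and was higher under CoCl2 by 1.20 ± 0.0769 (SE), adjusted p = 1.38e-12. ADM held 13.3, 13.1 and 12.6 CPM under OD, between the other groups, and was higher under CoCl2 by 2.94 ± 0.102 (SE), adjusted p = 6.99e-18.

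Metal, oxidant and protein damage genes separated the agents more. All 8 tested metallothioneins, of 17 listed, were higher under CoCl2 than under OD, where their median log2 fold change against control was 0.21. Since the filter can pass a gene through its CoCl2 libraries alone, this count is partly set by the filter. MT2A held 10.9, 10 and 10.8 CPM under OD (difference 5.38 ± 0.15 (SE), adjusted p = 8.16e-15), between the control and CoCl2 libraries. Of the NRF2 list 16 of 35 were higher under CoCl2 and 1 lower. HMOX1 held 21.6, 23.6 and 27.6 CPM under OD (difference 4.66 ± 0.0975 (SE), adjusted p = 7.52e-23) and FTL 2658, 2359 and 2448 CPM (difference 1.87 ± 0.0823 (SE), adjusted p = 1.03e-15). Heat shock genes were higher in 11 of 25 and lower in 1, and proteasome subunits higher in 11 of 36. HSPA1A held 38.1, 36.8 and 43 CPM under OD, a difference of 2.97 ± 0.0795 (SE), adjusted p = 2.16e-20, and PSMD14 57.2, 58.7 and 61.7 CPM, a difference of 1.64 ± 0.0805 (SE), adjusted p = 8.45e-15. Under OD neither the heat shock list nor the proteasome list had a member called against control.

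Some other genes were lower under CoCl2 than under OD. In serine synthesis this was so for PHGDH (difference -1.07 ± 0.0763 (SE), adjusted p = 1.02e-11), PSAT1 (difference -1.57 ± 0.116 (SE), adjusted p = 2.25e-11) and PSPH (difference -1.13 ± 0.094 (SE), adjusted p = 1.98e-10). EGFR held 194, 194 and 194 CPM under OD, within the range of the controls, and was lower under CoCl2 (difference -1.25 ± 0.0689 (SE), adjusted p = 8.21e-14), as was ERBB3 (difference -1.25 ± 0.072 (SE), adjusted p = 1.90e-13), while of the 18 growth factors and receptors 3 were higher and 3 lower under CoCl2 than OD. DNA replication genes were lower under CoCl2 than OD in 15 of 49 and higher in none, and against control 15 of the 49 were called higher under OD. Counts of histone genes differed the other way: of 36 tested out of 98 listed, 25 were higher under CoCl2 than OD, with medians of 0.58 and -0.76 against control. The libraries were made with a kit for messenger RNA, and how fully it captures histone transcripts was not tested. H2BC21 stood at 14.1, 15.4 and 14.3 CPM in the control libraries and 69.9, 71.6 and 77.9 CPM under CoCl2 and held 7.26, 7.21 and 6.49 CPM under OD (difference 3.39 ± 0.108 (SE), adjusted p = 9.88e-19), so that the agents moved it in opposite directions. Bile acid and drug handling had medians of -0.97 and -0.87, with 3 of 36 higher and 4 lower under CoCl2 than OD. CFTR held 89.5, 99.8 and 102 CPM under OD, a difference of -0.33 ± 0.0891 (SE), adjusted p = 0.00304, and AQP10 69.6, 66.9 and 75.1 CPM, a difference of -0.32 ± 0.137 (SE), adjusted p = 0.0634, neither past the call rule. A difference that was not called does not show that the agents acted alike, and the doses of the 2 agents were not matched.

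**Figure D5:**
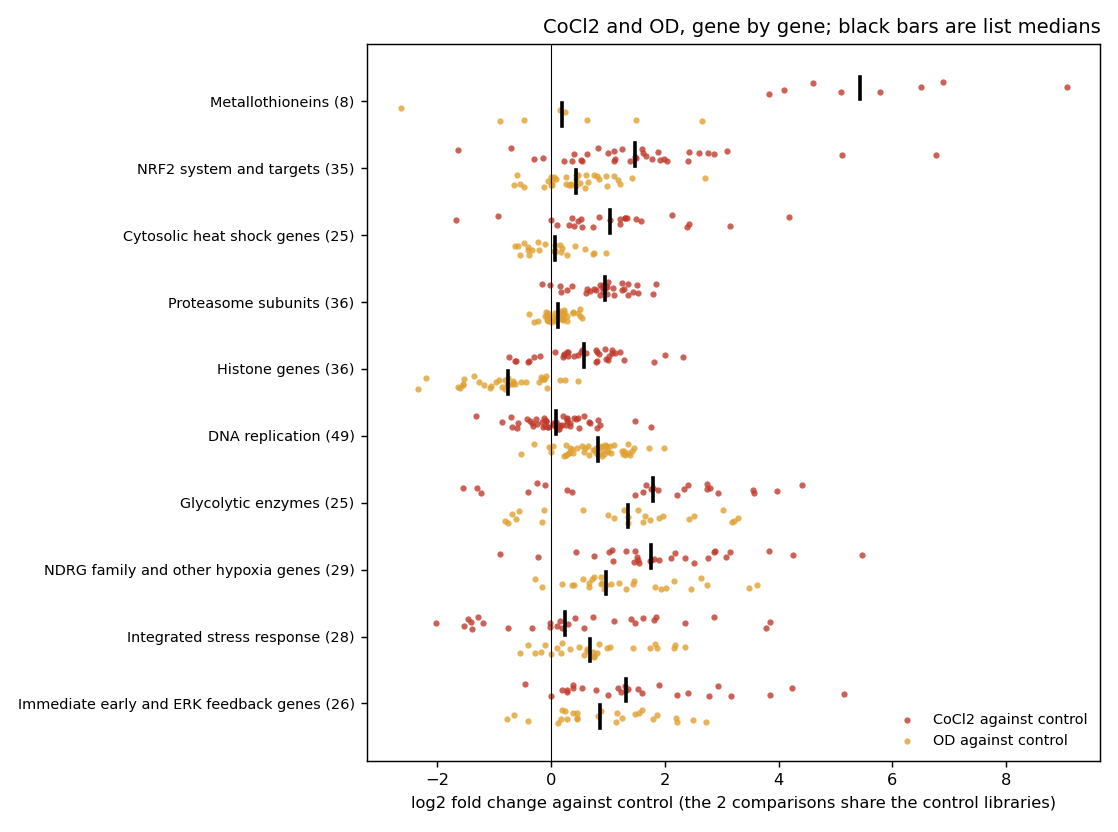
Log2 fold change against the shared control libraries (horizontal axis) for the tested members of 10 gene lists, with a row of points for CoCl2 and a row for OD in each list and the median as a black bar. The medians are far apart for metallothioneins (5.43 and 0.21), on opposite sides of 0 for histone genes (0.58 and -0.76), and closer for glycolytic enzymes (1.79 and 1.36). With the 3 metallothioneins at the floor in controls set to their bound, the CoCl2 median of that list is 4.80.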

How the data were processed

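Messenger RNA of differentiated Caco-2 cells was made into stranded libraries and sequenced by the authors as single-end reads of 75 nucleotides. According to their methods and processing notes, reads were checked with FastQC 0.11.9, trimmed with cutadapt 2.10 and aligned with STAR 2.7.5b to GRCh38.p13 with GENCODE release 34. The tool that made the counts is not given in the sources used here. The deposited count table holds whole-number counts per gene for each library. The deposited log2 table was made by the authors with edgeR 3.30.3 as log2 of RPKM plus 1, and was used only as an alternative. No column of per-sample values was left without a sample (0 columns). Columns of other cell lines and of small RNA were not used.

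Counts were analysed with edgeR 4.0.16 in R 4.3.3: the filter of filterByExpr, TMM scaling, 1 quasi-likelihood fit over the 9 control, CoCl2 and OD libraries, and Benjamini-Hochberg adjustment over all genes tested. DESeq2 1.42.0 and limma 3.58.1 gave alternatives. The biological coefficient of variation was 7.96% and the median SE of a log2 fold change 0.128. CPM are counts relative to the TMM-scaled library size, as edgeR computes them. Intervals of counting error were not needed, and a floor of 3 counts per library was used. Coordinates and exon lengths are from GENCODE release 44, which matched 14015 of the tested genes (87.4%) by symbol. Promoters are from RefSeq. The fit was also run on simulated counts in which few genes were changed. That check does not bear on the scaling or on the split by direction.

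The comparison, the gene lists and the families were chosen with earlier results of these data known. Genes named are the 20 highest and 20 lowest log2 fold changes among called genes with a mean of at least 100 counts and no overlap, the 10 largest gains and losses in CPM, members of the gene lists, the extremes of symbol families, and genes at the floor among the 10 most counted of each direction. Some genes that meet this rule are not reported here.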

Additional observations from a re-analysis of the deposited data

How the results depend on the processing

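The 3745 calls, 1464 higher and 2281 lower, stayed within 1.5 times under RLE size factors, DESeq2, no filter on low counts and a fit of the 6 libraries alone, and leaving out 1 library gave 3691 to 3914 calls, 1455 to 1522 higher and 2207 to 2392 lower. Scaling by total counts gave 865 higher and 3544 lower. Limma-trend on the log2 table, where low genes are damped by the pseudocount, gave 1098 calls (584 higher, 514 lower) with a pseudocount of 1 and 2116 (885 and 1231) with 0.1. With no fold limit 10375 genes passed (5067 higher, 5308 lower), and 7961 in place of 1860 for CoCl2 against OD, which otherwise gave 1832 to 2235 calls across settings and 1742 to 1953 without 1 library. Replicate numbers gave no sign of pairing. Deviations of same-numbered libraries correlated by -0.0499, -0.0519 and 0.0404, and those of unlike-numbered libraries by up to 0.0961. These values cannot show that the cultures were not paired, since counting error enters the deviations. The replicate block gave 3733 calls, 1457 higher and 2276 lower, and 1844 against OD. Among 255 genes named, 224 of them called, 3663 of 3774 values kept direction and side of the threshold, 80 lost the call, 24 gained it and 7 changed sign. No called gene changed sign. Those that did were, on total counts, SLC40A1 (-0.021), VHL (-0.17), DPP4 (-0.29) and HNF4A (-0.25), DPP4 with limma-trend (-0.00374 and -0.00376) and AXIN2 without control replicate 3 (0.037, the range without 1 library being -0.15 to 0.037). Leaving out CoCl2 replicate 1 ended the calls of SLC30A10, KEAP1, CXCL1, RPL41, RPL30, RPS27 and KRT8, and leaving out CoCl2 replicate 3 that of UROD. RPL41 lost its call without any 1 library, KEAP1 and CXCL1 also without control replicate 1 or 3, and RPL30 and RPS27 also without control replicate 1 or 2 and under the block. Total counts ended the calls of 24 named genes, among them NQO1, HSPA8, HSP90AA1, SOD1, MYC, NFKBIA, KRT19, OCLN and CDKN1A. The cause of these shifts was not tested. Depth limits genes below about 1 CPM, where a library holds few counts.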

Other observations

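Several groups of genes stand outside the comparisons above. Oxygen-dependent enzymes of chromatin and RNA, which share the chemistry of the HIF hydroxylases, were higher in 8 of 34 tested and lower in 2, or 4 and 3 with total-count scaling, where TET1, TET2 and KDM7A were not called. Beside KDM3A, the histone demethylases KDM4B and KDM5B were at 1.51 and 1.53 on the log2 scale, JMJD6 at 2.14, and TET1 and TET2, which oxidise methylcytosine, at 1.20 and 1.12. KDM5B, KDM7A and TET1 were also higher under CoCl2 than under OD, where their log2 fold changes against control were 0.39, 0.15 and -0.10. Of 18 tested clock genes 6 were higher and 1 lower. CIART, a repressor within the clock, stood at 3.9, 4.9 and 3.53 CPM in the control libraries and 29.7, 29.7 and 30.4 CPM under CoCl2 (log2 fold change 2.86 ± 0.142 (SE), adjusted p = 1.46e-15) and PER1 at 7.68, 8.12 and 7.62 CPM in the control libraries and 26.8, 25.2 and 25.7 CPM under CoCl2, while HLF, an output factor of the clock, fell from 14.9, 13.3 and 13.4 CPM to 2.92, 4.14 and 3.25 CPM. The treated libraries of these 3 genes did not overlap the controls, as was so for 69.0% of all tested genes.

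Actin and motility genes were higher in 9 of 41 tested and lower in 1. ANXA1, a membrane-binding annexin, stood at 1.34, 1.88 and 1.66 CPM in the control libraries and 7.92, 9.01 and 8.76 CPM under CoCl2, and FLNA, which crosslinks actin, at 259, 274 and 275 CPM in the control libraries and 801, 699 and 686 CPM under CoCl2, and both were higher under CoCl2 than under OD (differences 1.74 and 1.30). The actin-binding peptides TMSB4X and TMSB10 had log2 fold changes of 1.47 and 1.63 under CoCl2 and 1.44 and 1.31 under OD. Of 25 tested p53 targets 9 were higher and 1 lower, or 5 and 2 with total-count scaling, which also changed the sign of the median and ended the call of CDKN1A. The cell cycle inhibitor CDKN1A rose by 1.26 and PLK3, a stress kinase, by 2.88, whereas TP53I3, an oxidoreductase, fell from 8.96, 8.32 and 7.82 CPM to 3.33, 4.21 and 4.11 CPM and held 15.1, 12.3 and 13.5 CPM under OD. In fatty acid synthesis none of 18 tested genes was higher and 4 were lower, among them ELOVL2, an elongase of polyunsaturated fatty acids, at 1.69, 1.01 and 1.18 CPM in the control libraries and 0.25, 0.218 and 0.0541 CPM under CoCl2 (3 counts or fewer per treated library), and the desaturase FADS1, at 249.6, 228 and 219 CPM in the control libraries and 102, 102 and 104 CPM under CoCl2 and 286, 247 and 261 CPM under OD. FADS1 overlaps FADS2 on the opposite strand.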
